A study of Homo sapiens with 6 samples.

Results

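Nucleotide excision repair cuts out a short stretch of DNA strand around bulky lesions such as those made by ultraviolet light, and new synthesis fills the gap. In the global-genome branch XPC and the DDB1-DDB2 complex find lesions anywhere in the genome, while in the transcription-coupled branch a stalled RNA polymerase II is recognised by ERCC6 and ERCC8. Both branches then bring in TFIIH, which opens the helix, XPA and RPA, which hold the opened strands, and a pair of nucleases, after which a DNA ligase seals the strand. Of 60179 gene rows in the deposited table, 33 carried the symbols of this pathway. They fall into 8 global-genome genes, 6 transcription-coupled genes, 9 TFIIH genes, 7 genes of verification and incision, and 3 of strand sealing or lesion bypass. The genes were chosen by name from the pathway and not by their values, but with earlier results of these data known.

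The cells were HEK293T, derived from human embryonic kidney and expressing the large T antigen of SV40, which binds p53. All 3 groups were co-transfected with pShP2419 and pStH1169 and grown for 48 h with 4,5-dimethoxy-2-nitrobenzyl-L-serine at 0.1 mM, a photocaged serine that keeps human TET2, an enzyme that oxidises 5-methylcytosine, inactive until light frees it. The caged 0 h group received no light, and the uncaged 4 h and 8 h groups were lit at 365 nm for 3 min and kept in growth medium for those times before 500000 transfected cells were sorted per sample. RNA enriched for mRNA was sequenced from 2 libraries a group. The comparison addresses how transcript levels change over the hours that follow activation of hTET2. No group was lit without the enzyme, so light of 365 nm, the washes, elapsed time and active TET2 cannot be told apart in any comparison with caged cells.

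Library depth ran from 14903812 to 17670499 estimated counts assigned to genes. The share of counts on plasmid sequences was 11.5% and 11.8% in caged cells and 14.8% to 15.5% after light. With those sequences kept in the fit, 7 repair genes were called higher at 4 h in place of 8, and 18 at 8 h as before. All 6 markers listed for the line were detected in every library. VIM lay at 460 to 522 CPM (counts scaled to the TMM-adjusted library size) and PAX2 at 4.41 to 6.88 CPM. KRT18 lay at 36.0 to 44.3 CPM, KRT8 at 6.47 to 7.82 CPM, NEFM at 5.32 to 6.94 CPM and LHX1 at 2.37 to 4.44 CPM. The leukocyte marker CD3E had 0 counts in all 6 libraries, where a count of 0 allows up to 3 counts, and PTPRC had at most 1. Of the other listed markers, the hepatocyte gene ALB lay at 1.04 to 2.03 CPM. Of the 2 fibroblast genes, COL1A1 lay at 16.9 to 19.7 CPM and DCN at 0 to 0.333 CPM. COL1A1 thus lay above KRT8, PAX2, LHX1 and NEFM, so these levels alone do not identify the line. Nothing in the labels says that replicates came from separate cultures, so the p-values reflect spread among libraries that may be technical.

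All 33 repair genes passed the filter on low counts, with 225 to 7577 estimated counts in a library. At 8 h after light 18 of them were called higher than in caged cells and 0 lower, at an adjusted p under 0.05 in edgeR's quasi-likelihood test. The background was 28.1% of 17449 tested features called in either direction, 14.9% higher and 13.2% lower, and the 18 genes make 54.5% of the 33. Features with a mean level at least that of the lowest repair gene (16.6 CPM) were called higher in 22.3% of cases and lower in 14.4%. This floor, used throughout, does not match features on level. The median level of the repair genes was 72.8 CPM. It was 100.6 CPM for those called at 8 h and 52.2 CPM for the uncalled ones. The median log2 fold change of the 33 genes was 0.20, beside -0.005 over all tested features and 0.027 over features above that floor. At 4 h there were 8 called higher and 0 lower, or 24.2%, beside a background of 9.72% in either direction, 6.16% higher and 3.56% lower. Among features at least as abundant as the lowest repair gene 9.64% were called higher and 3.7% lower. The median at 4 h was 0.093 for the repair genes, -0.006 for all features and 0.023 for features above the floor. The 8 genes called at 4 h were all called at 8 h, 10 more were called at 8 h, and 15 passed at neither time; both comparisons share the caged libraries. In bulk RNA, fewer cells with a transcript and less of it per cell cannot be told apart.

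The changes were small. Called genes lay 1.18- to 1.40-fold above caged cells at 4 h and 1.13- to 1.78-fold at 8 h. ERCC6, RBX1, DDB2, XPC, USP7 and ERCC3 held their call at 8 h under all 19 alternative settings, which include 6 fits that each left out 1 library. Without any one of the 4 compared libraries the count of repair genes called higher at 8 h was 10 or fewer, and it was 7 without caged replicate 1. At 4 h it was 2 without either caged replicate, 1 without 4 h replicate 1 and 0 without 4 h replicate 2, a fit in which calls over all features fell to 226 from 1696.

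**Figure D1:**
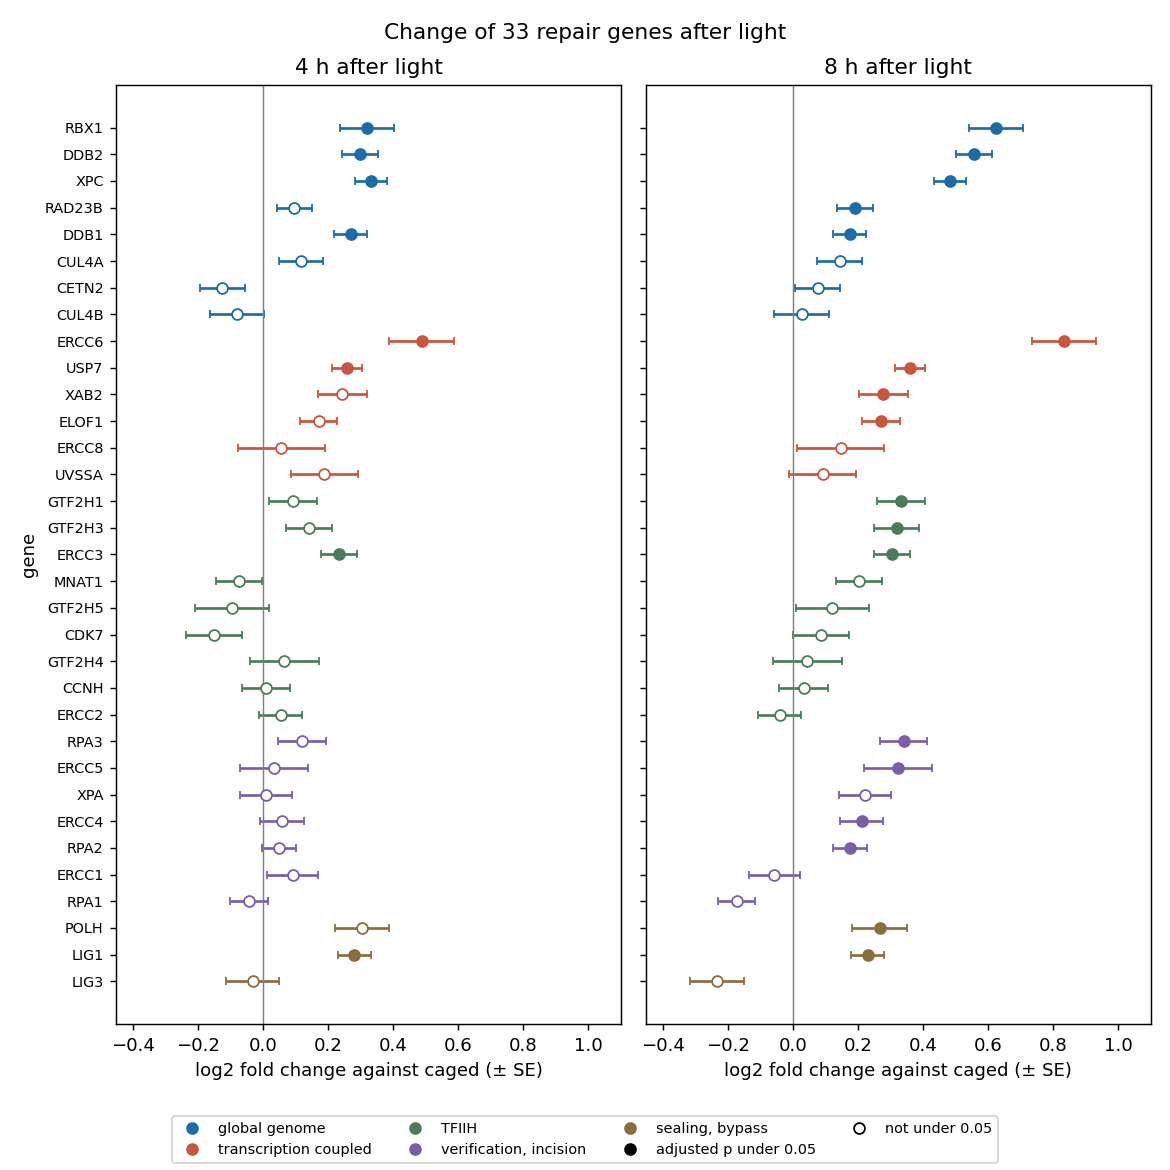
Log2 fold change against caged cells (x axis, ± SE) for each of the 33 repair genes (y axis, grouped and coloured by role) at 4 h and at 8 h after light, from 2 libraries a group; filled points have an adjusted p under 0.05. At 8 h 18 points are filled, all to the right of 0, with ERCC6 farthest out at 0.83; 8 are filled at 4 h.

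Lesion recognition in the whole genome held several of the clearest changes. XPC, which senses the distorted helix, stood at 215 and 217 CPM in caged cells, 272 and 273 CPM at 4 h and 310 and 294 CPM at 8 h. Its groups did not overlap. For XPC and the called genes below, such separation comes from the libraries that the test used and is no further evidence. The level of XPC rose by 0.33 ± 0.049 on the log2 scale at 4 h (adjusted p = 0.00708), and the rise at 8 h was 0.48 ± 0.049 (adjusted p = 0.000709). Without 4 h replicate 2 the 4 h call was lost (adjusted p = 0.0701). XPC (chromosome 3, 14145147 to 14178783 of GRCh38) shares 23.8% of its exon bases with the antisense gene AC093495.1, which averaged 327 estimated counts a library. Also on the opposite strand, LSM3 shares 6.63% (1254 estimated counts) and AC090004.1 shares 8.61% (46.9 estimated counts). Without strand information reads of such overlapping genes cannot be separated.

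DDB2, the subunit of the UV-damage sensor that contacts the lesion, lay on chromosome 11 (47214465 to 47239240). It had 340 and 338 CPM in caged cells, 424 and 411 CPM at 4 h and 524 and 475 CPM at 8 h, so that every later library exceeded every earlier one. The increase was 0.30 ± 0.055 at 4 h (adjusted p = 0.0156) and 0.56 ± 0.055 at 8 h (adjusted p = 0.000629). The 4 h call was lost without any one of the 4 libraries compared, and under cyclic loess offsets, where the value was 0.15. DDB1, its partner and the adaptor of the CUL4 ubiquitin ligase, had 313 and 296 CPM in caged cells, 369 and 367 CPM at 4 h and 354 and 334 CPM at 8 h. DDB1 was called higher at both times, by 0.27 ± 0.052 (adjusted p = 0.0175) and 0.17 ± 0.052 (adjusted p = 0.0364), and its level at 8 h was below that at 4 h without passing the test between them (adjusted p = 0.309). Its 4 h call was lost without caged replicate 2 or either 4 h replicate. The 8 h value of DDB1 turned to -0.046 under cyclic loess offsets and was uncalled whenever 1 library was left out.

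The ligase that DDB1 joins consists of a CUL4 scaffold and the RING subunit RBX1, and it serves DDB2 in the global branch and ERCC8 in the transcription-coupled branch. Although shared, DDB1, CUL4A, CUL4B and RBX1 are counted here with the global-genome genes, so counts by branch do not fully separate the branches. RBX1 (chromosome 22, 40951347 to 40973309) had 23.2 and 22.5 CPM in caged cells, 30.2 and 26.9 CPM at 4 h and 34.9 and 35.6 CPM at 8 h. The groups were fully separate. RBX1 rose by 0.32 ± 0.084 at 4 h (adjusted p = 0.0482), and the rise at 8 h was 0.62 ± 0.083 (adjusted p = 0.00176). Its 4 h call was lost whichever of the 6 libraries was left out, and with DESeq2 or limma-voom. The scaffold genes showed no such call: CUL4A stood at 0.15 ± 0.069 and CUL4B at 0.027 ± 0.083 at 8 h. The XPC partner RAD23B, which stabilises it, was called at 8 h only, from 261 and 282 CPM in caged cells and 287 and 294 CPM at 4 h to 304 and 317 CPM (0.19 ± 0.054, adjusted p = 0.0316). That value turned to -0.014 under cyclic loess offsets, and the call held only without caged replicate 2 among the fits that left out a library. CETN2, a centrin in the same complex, was at -0.12 ± 0.070 at 4 h and 0.077 ± 0.069 at 8 h, without a call. In all, 4 of the 8 global-genome genes were called higher at 4 h and 5 at 8 h, with medians of 0.19 and 0.18. Their shares of 50% and 62.5% stand beside 6.16% and 14.9% of all tested features. Among features at least as abundant as the lowest repair gene 9.64% and 22.3% were called higher.

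Recognition of stalled polymerase included ERCC6, the largest fold change of the 33 genes at both times. ERCC6 (CSB), an ATPase that binds stalled RNA polymerase II, lies on chromosome 10 (49455368 to 49539538). It had 16.1 and 19.2 CPM in caged cells, 25.1 and 24.4 CPM at 4 h and 31.5 and 31.4 CPM at 8 h. No library of a later group fell within the range of an earlier one. ERCC6 rose by 0.49 ± 0.100 at 4 h (adjusted p = 0.0222), and the rise at 8 h was 0.83 ± 0.098 (adjusted p = 0.00117), a 1.78-fold difference, and its estimates were whole numbers within 0.01 in all 6 libraries. At 4 h the call was lost without caged replicate 1 or either 4 h replicate.

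USP7, a deubiquitinase that works with UVSSA to protect ERCC6, had nearly equal replicates: 210 and 210 CPM in caged cells, 252 and 250 CPM at 4 h, and 269 and 270 CPM at 8 h. USP7 rose at both times, by 0.26 ± 0.046 (adjusted p = 0.0132) and then 0.36 ± 0.046 (adjusted p = 0.00158); the 4 h call was lost without any one of the 4 libraries compared. XAB2, an XPA-binding splicing factor, was called at 8 h, with 83.8 and 85.4 CPM in caged cells, 103 and 97.0 CPM at 4 h and 109 and 96.0 CPM at 8 h (0.28 ± 0.075, adjusted p = 0.0260). ELOF1, a conserved elongation factor that rides with the polymerase, was also called at 8 h only, from 75.4 and 74.9 CPM in caged cells and 85.3 and 84.0 CPM at 4 h to 92.0 and 89.4 CPM (0.27 ± 0.058, adjusted p = 0.0108). The 8 h libraries of both lay above all caged ones. Both calls were lost without caged replicate 1, caged replicate 2 or 8 h replicate 1, and with library totals as the scaling. ERCC8 (CSA), the DDB1-bound receptor of this branch, stood at 0.15 ± 0.13 at 8 h and UVSSA, which recruits TFIIH, at 0.092 ± 0.10, neither past the test. The branch thus held 2 of 6 genes called higher at 4 h and 4 at 8 h, with medians of 0.22 and 0.27. Those shares of 33.3% and 66.7% stand beside 6.16% and 14.9% of all tested features. Among features at least as abundant as the lowest repair gene 9.64% and 22.3% were called higher. The ERCC6 value was not tested against those of the other genes of the branch.

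The stretches of DNA before the starts of ERCC6, RBX1 and DDB2 are shown because these genes had the largest changes at 8 h and because cytosine in CG pairs is the usual site of the 5-methylcytosine that TET2 oxidises. Sequences are from RefSeq (GRCh38.p14), on the strand of the gene, with CG pairs in capitals. For a gene with several listed starts the one nearest the GENCODE 29 start was taken, and 31 bases that lie within the annotated RBX1 gene were left off. The windows are chr10:49539539-49539788 on the minus strand for ERCC6, chr22:40951128-40951346 on the plus strand for RBX1 and chr11:47214204-47214453 on the plus strand for DDB2.
ERCC6: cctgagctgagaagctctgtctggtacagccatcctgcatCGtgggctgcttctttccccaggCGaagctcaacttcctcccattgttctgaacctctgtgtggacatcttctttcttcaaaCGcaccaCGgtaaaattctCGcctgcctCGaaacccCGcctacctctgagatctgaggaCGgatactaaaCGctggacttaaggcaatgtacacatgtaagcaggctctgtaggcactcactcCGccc
RBX1: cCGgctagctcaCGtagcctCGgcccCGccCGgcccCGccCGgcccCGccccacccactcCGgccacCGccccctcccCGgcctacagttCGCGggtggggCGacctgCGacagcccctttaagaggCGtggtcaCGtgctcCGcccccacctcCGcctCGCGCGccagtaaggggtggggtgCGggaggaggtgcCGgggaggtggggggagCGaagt
DDB2: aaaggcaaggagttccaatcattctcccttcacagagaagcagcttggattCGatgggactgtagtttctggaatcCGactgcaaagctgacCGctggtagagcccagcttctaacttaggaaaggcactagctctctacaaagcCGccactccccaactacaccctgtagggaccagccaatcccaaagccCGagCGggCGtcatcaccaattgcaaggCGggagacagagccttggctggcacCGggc

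The 3 windows differ in the density of CG pairs. The RBX1 window holds 25 in 219 bases, and those of ERCC6 and DDB2 hold 10 and 9 in 250 bases. RefSeq windows of 250 bases were found for 31 of the 33 genes (47 windows, since some genes have several starts), all but RPA2 and RPA3, with a median of 20 CG pairs beside 11 over 35116 windows of all genes. With 1 window a gene, the 16 genes called higher at 8 h had a median of 24.5 CG pairs (9 to 43) and the 15 uncalled genes 20 (3 to 42), so the ranges overlapped almost wholly. The nearest listed window lay 9491, 27281 and 38886 bases from the GENCODE start for DDB1, ERCC1 and ERCC5. Methylation of these bases was not measured here. On either strand, the GC box GGGCGG occurred in 26 of the 47 windows (42.6% of all windows) and CCAAT in 13 (32.0% of all). The NRF1 motif occurred in 7 (5.07% of all), CCGGAAGT, an ETS motif, in 4 (3.42% of all) and the E-box CACGTG in 9 (6.34% of all). The printed RBX1 window has 5 GC boxes, that of ERCC6 has 1 and that of DDB2 has 0, while the printed DDB2 window has 3 CCAAT matches. These counts and the CG density depend on the start taken. The other listed window of DDB2 has 16 CG pairs, 3 GC boxes and 0 CCAAT matches. That of ERCC6 has 18 CG pairs, 0 GC boxes and 1 E-box. The half-site of the p53 motif, TATAAA and TGACGTCA matched in 0 of the 47 windows, beside 5.57%, 10.7% and 1.65% of all windows; that says only that these letters are not there. GC boxes can overlap one another, and longer motifs can hold CG pairs.

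**Figure D2:**
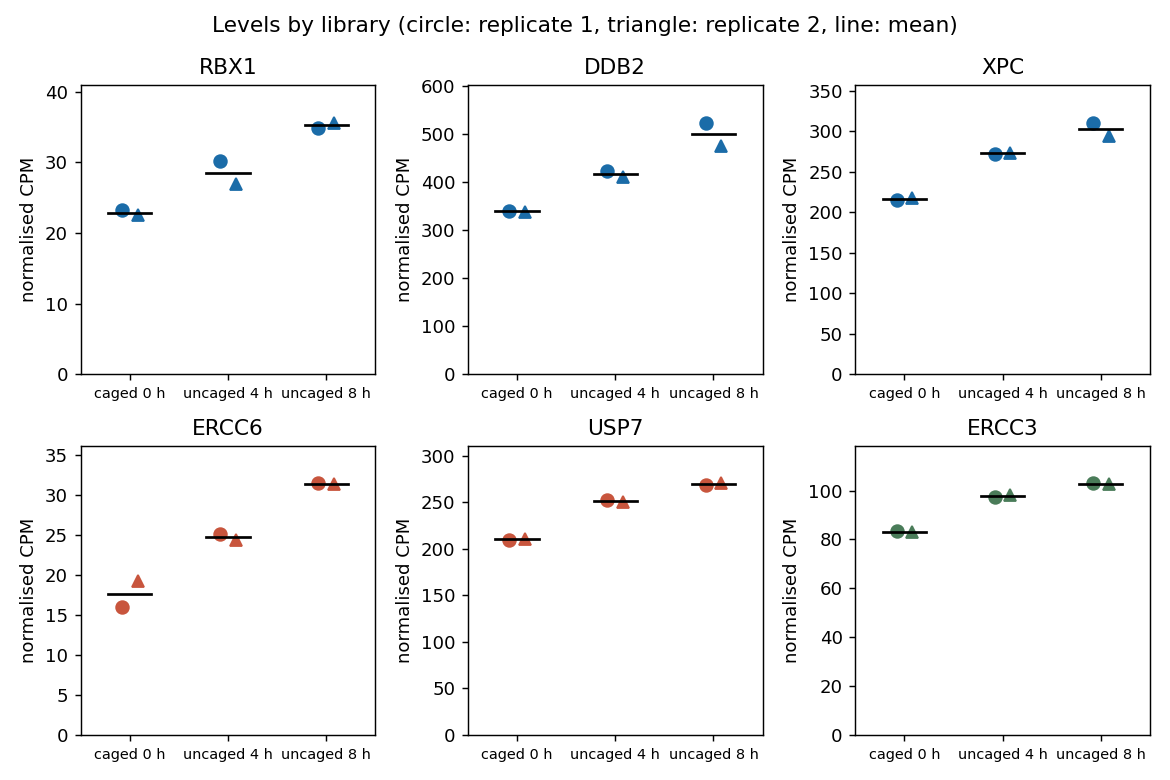
Normalised CPM (y axis, from 0) in each library of the 3 groups (x axis) for the 6 genes whose 8 h call held under all alternatives; circles are replicate 1, triangles replicate 2, and lines the means of 2 libraries. In all 6 panels the caged points lie lowest and the 8 h points highest, without overlap, as for ERCC6 from 16.1 and 19.2 to 31.5 and 31.4 CPM. The genes were chosen by their call in these same libraries, so the separation of 8 h from caged points is no further evidence.

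TFIIH, the helix-opening complex that also serves transcription initiation, had 1 of 9 genes called higher at 4 h and 3 at 8 h. These shares of 11.1% and 33.3% stand beside 6.16% and 14.9% of all tested features. Among features at least as abundant as the lowest repair gene 9.64% and 22.3% were called higher. The TFIIH share at 4 h was thus near that background. The roles were not tested against each other. The medians were 0.055 and 0.12. ERCC3 (XPB), the translocase of its core, went from 83.3 and 83.1 CPM in caged cells to 97.5 and 98.1 CPM at 4 h and 103 and 103 CPM at 8 h. The rise was 0.23 ± 0.055 at 4 h (adjusted p = 0.0360), a call lost in each fit without 1 library, and 0.31 ± 0.055 at 8 h (adjusted p = 0.00568). The core subunits GTF2H1 and GTF2H3 were called at 8 h only. GTF2H1 had 89.3 and 101 CPM in caged cells, 105 and 98.4 CPM at 4 h and 117 and 122 CPM at 8 h (0.33 ± 0.074, adjusted p = 0.0128), a call lost without caged replicate 1 or 8 h replicate 2. GTF2H3 had 65.1 and 65.2 CPM in caged cells, 70.0 and 73.7 CPM at 4 h and 77.4 and 85.2 CPM at 8 h (0.32 ± 0.069, adjusted p = 0.0116), lost without either caged replicate or 8 h replicate 2.

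The helicase gene ERCC2 (XPD), whose product unwinds DNA at the lesion, was called at neither time. ERCC2 had 76.6 and 71.1 CPM in caged cells, 76.1 and 77.3 CPM at 4 h and 73.6 and 70.1 CPM at 8 h (-0.040 ± 0.066), with overlapping groups. The small stabilising subunit GTF2H5 stood at 0.12 ± 0.11 and GTF2H4, which anchors ERCC3, at 0.044 ± 0.11 at 8 h; GTF2H4 shares 79.0% of its exon bases with VARS2 on the same strand, so its level is uncertain. The kinase module was also without a call at 8 h: CDK7 at 0.087 ± 0.085, its cyclin CCNH at 0.034 ± 0.075 and the assembly factor MNAT1 at 0.20 ± 0.070 (adjusted p = 0.0612). CDK7 had 34.2 and 35.6 CPM in caged cells, 33.7 and 29.3 CPM at 4 h and 36.2 and 38.0 CPM at 8 h, lowest at 4 h.

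Verification and incision genes had 0 calls of 7 at 4 h and 4 at 8 h, with medians of 0.049 and 0.21. These are 0% and 57.1% called higher, beside 6.16% and 14.9% of all tested features. Among features at least as abundant as the lowest repair gene 9.64% and 22.3% were called higher. The subunits of RPA, the heterotrimer that coats single-stranded DNA, had 8 h values of both signs. RPA3, the smallest, had 51.6 and 51.8 CPM in caged cells, 58.9 and 53.5 CPM at 4 h and 63.4 and 67.7 CPM at 8 h (0.34 ± 0.073, adjusted p = 0.0109), a call lost without either caged replicate or 8 h replicate 2. RPA2 had 240 and 258 CPM in caged cells, 254 and 261 CPM at 4 h and 279 and 284 CPM at 8 h (0.18 ± 0.052, adjusted p = 0.0375). The RPA2 call held in 1 of the 6 fits that left out a library, without caged replicate 2, and the value turned to -0.019 under cyclic loess offsets. RPA1, the large DNA-binding subunit, had 147 and 159 CPM in caged cells, 148 and 149 CPM at 4 h and 135 and 137 CPM at 8 h, with the 8 h libraries below all others. Its value of -0.17 ± 0.058 missed the threshold (adjusted p = 0.0558) and passed in 5 of the alternatives, upper-quartile factors (adjusted p = 0.0348), library totals (0.00828), cyclic loess offsets (0.00731), robust=TRUE (0.0435) and plasmid sequences kept (0.0498). The difference between the RPA subunits was not tested.

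The nucleases cut on either side of the lesion. ERCC5 (XPG) had 42.0 and 53.004 CPM in caged cells, 47.5 and 49.8 CPM at 4 h and 59.5 and 59.4 CPM at 8 h (0.32 ± 0.10, adjusted p = 0.0479), a call that of the fits without 1 library held only without caged replicate 2. Its exons overlap the read-through gene BIVM-ERCC5 over 63.2% of their bases, although that gene averaged 0.305 estimated counts. The exons of ERCC5 also share 19.1% of their bases with BIVM on the same strand, which averaged 317 estimated counts. ERCC4 (XPF), the catalytic subunit of the other nuclease, had 52.0 and 52.5 CPM in caged cells, 55.0 and 53.9 CPM at 4 h and 58.2 and 62.9 CPM at 8 h (0.21 ± 0.067, adjusted p = 0.0456), and lost the call in each fit without 1 library. The antisense gene AC010401.1 covers 25.7% of its exon bases and averaged 16.0 estimated counts. Its partner ERCC1 stood at -0.056 ± 0.079 at 8 h with 57.4 and 64.3 CPM in caged cells and 58.8 and 58.2 CPM at 8 h. CD3EAP on the opposite strand overlaps 28.6% of the ERCC1 exon bases and averaged 241 estimated counts. XPA, the scaffold that checks the damaged strand, stood at 0.22 ± 0.080 (adjusted p = 0.0694).

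Among genes of sealing and bypass, LIG1, the ligase of replication and repair, was called at both times. LIG1 had 133 and 133 CPM in caged cells, 161 and 162 CPM at 4 h and 158 and 153 CPM at 8 h, so that both lit groups lay above the caged one. It rose by 0.28 ± 0.051 at 4 h (adjusted p = 0.0147), lost without any one of the 4 libraries compared, and by 0.23 ± 0.051 at 8 h (adjusted p = 0.0129), lost without either caged replicate or 8 h replicate 1. POLH, the translesion polymerase that copies past thymine dimers, had 133 and 116 CPM in caged cells, 148 and 159 CPM at 4 h and 158 and 142 CPM at 8 h. POLH was called at 8 h (0.27 ± 0.083, adjusted p = 0.0443), while its larger value at 4 h was not (0.30 ± 0.083, adjusted p = 0.0554), although it was with DESeq2 and limma-voom. The 8 h call of POLH held only without caged replicate 1 or 8 h replicate 2 among the fits that left out a library. LIG3, the ligase that acts with XRCC1, had 42.5 and 38.6 CPM in caged cells, 41.8 and 37.6 CPM at 4 h and 34.2 and 34.8 CPM at 8 h (-0.23 ± 0.083, adjusted p = 0.0683). It passed with library totals as the scaling (-0.34, adjusted p = 0.0169), and 29.1% of its exon bases overlap RFFL on the opposite strand.

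**Figure D3:**
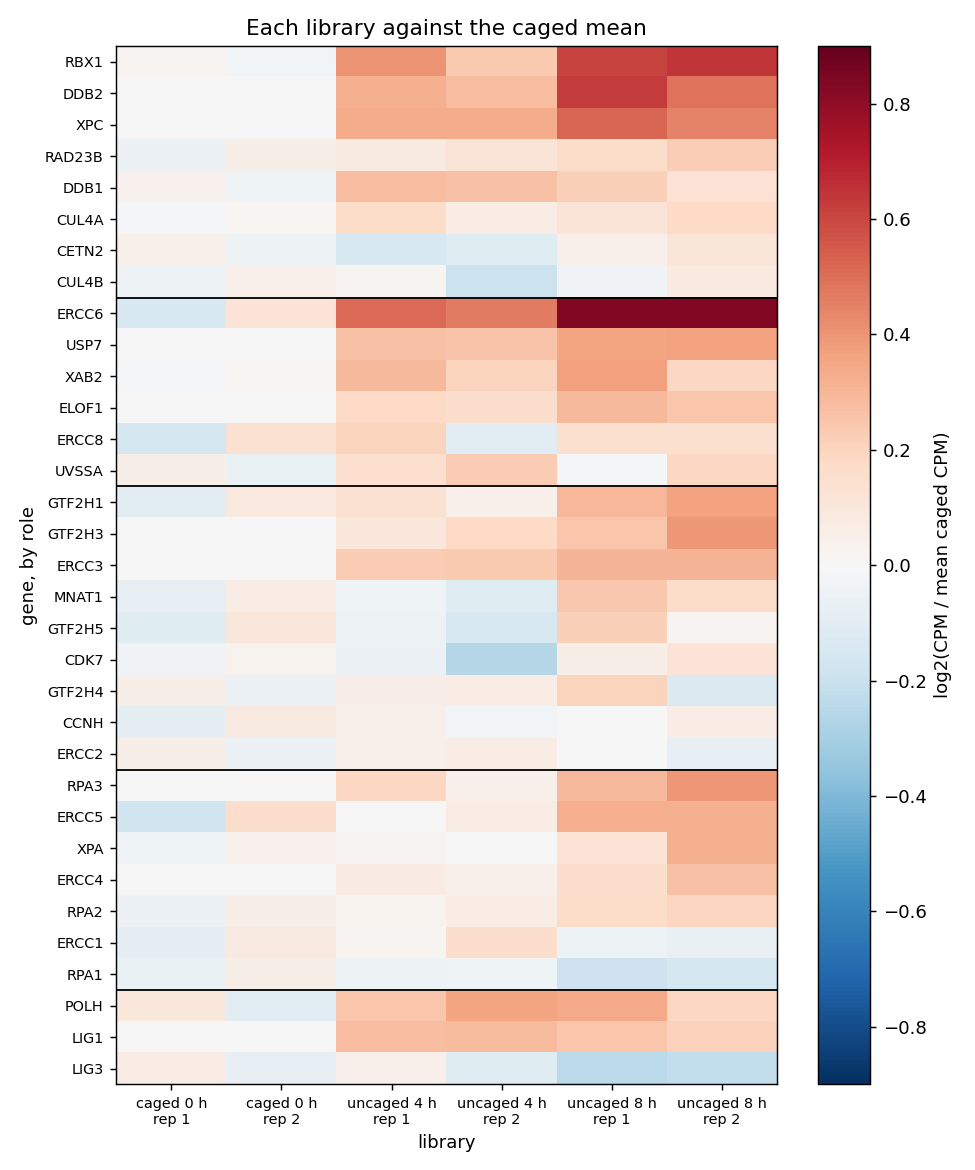
Log2 of each library's CPM over the mean of the 2 caged libraries (colour, red higher and blue lower) for the 33 repair genes (rows, grouped by role as above) in the 6 libraries (columns). Red deepens from 4 h to 8 h for ERCC6, RBX1, DDB2 and XPC, whereas RPA1 and LIG3 are blue in both 8 h libraries.

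Between 4 h and 8 h, 1 of the 33 genes was called higher and 0 lower, beside a background of 3.27% in either direction, 2.05% higher and 1.21% lower (3.33% and 1.56% among features at least as abundant). That gene was DDB2 (0.26 ± 0.055, adjusted p = 0.0462), which was no longer called when any 1 of the 6 libraries was left out (adjusted p = 0.0697 to 0.206). The steps of RBX1 (0.30 ± 0.082, adjusted p = 0.0796), ERCC6 (0.35 ± 0.096, adjusted p = 0.0852) and MNAT1 (0.28 ± 0.071, adjusted p = 0.0713) missed the threshold. MNAT1 had 82.1 and 77.9 CPM at 4 h and 99.4 and 94.3 CPM at 8 h, and passed with DESeq2 and with robust=TRUE. The median step over the 33 genes was 0.10, and by role it was 0.13 for the global-genome genes, 0.095 for the transcription-coupled genes and 0.18 for TFIIH. The 3 genes of sealing and bypass had steps of -0.050 for LIG1, -0.20 for LIG3 and -0.037 for POLH.

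Levels can be compared between genes only per length, here as mean CPM per kb of merged exons in GENCODE 29, which counts rarely used exons and so understates genes with many of them. The deposited table carries a later version than GENCODE 29 for 19 of the 33 genes, ERCC6 among them, so exon lengths, and the levels and ranks built on them, may differ from those of the annotation behind the counts. On this scale RPA2 was the most abundant of the 33 in caged cells at 123 CPM per kb, followed by DDB2 at 69.3, RAD23B at 58.9 and XPC at 45.1 CPM per kb. The lowest were UVSSA and ERCC6, both at 1.05 CPM per kb, then GTF2H5 at 2.18 and ERCC8 at 2.95 CPM per kb. Of the transcription-coupled genes, ERCC6, ERCC8 and UVSSA thus lay near the bottom of the range, and USP7 higher, at 26.3 CPM per kb. At 8 h DDB2 stood at 102 CPM per kb beside 24.7 for DDB1, and ERCC6 at 1.88. These values rest heavily on exon length. Before division by length DDB2 and DDB1 had means of 500 and 344 CPM at 8 h, with merged exons of 4897 and 13950 bases. Those of ERCC6 and UVSSA are 16737 and 15773 bases long. RPA1 and RPA3 were at 27.8 and 16.0 CPM per kb in caged cells, well below RPA2, and at 24.7 and 20.3 at 8 h. The 4 most abundant genes kept their order at 8 h.

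**Figure D4:**
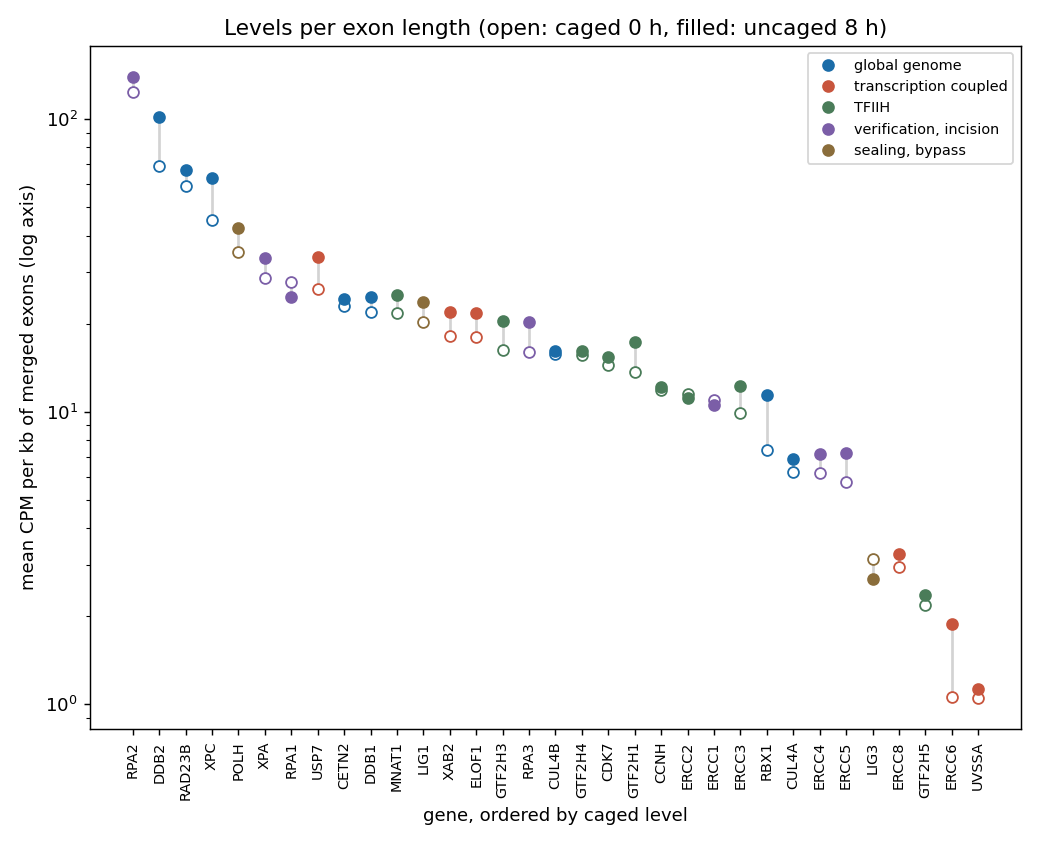
Mean CPM per kb of merged exons (y axis, log scale, means of 2 libraries) for the 33 repair genes (x axis, ordered by caged level, coloured by role), with open points for caged 0 h and filled points for uncaged 8 h. RPA2 and DDB2 lie at the top at 123 and 69.3 CPM per kb in caged cells, and ERCC6 and UVSSA lie lowest at 1.05.

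A further 44 genes of gap filling, accessory recognition, translesion synthesis and the COP9 signalosome, which regulates CUL4 ligases, were all tested. At 4 h 4 were called higher and 0 lower, and at 8 h 17 higher and 0 lower, or 9.09% and 38.6%, beside 6.16% and 14.9% of all tested features called higher. Among features at least as abundant as the lowest repair gene 9.64% and 22.3% were called higher. Some of the 44 genes, such as POLD4 at 8.24 CPM, lay below that level. The share of the 44 genes called at 4 h was thus near the background. Their medians were 0.048 and 0.11. INO80, the ATPase of a chromatin remodeler, rose by 0.49 ± 0.062 at 4 h (adjusted p = 0.00419) and 0.55 ± 0.062 at 8 h (adjusted p = 0.00101). POLE, the catalytic subunit of DNA polymerase epsilon, rose by 0.45 ± 0.063 at 4 h, COPS3 of the signalosome by 0.20 ± 0.046 and the SUMO-targeted ubiquitin ligase RNF111 by 0.26 ± 0.062. At 8 h COPS3 stood at 0.42 ± 0.046, the accessory polymerase subunit POLE3 at 0.46 ± 0.065, the ubiquitin-conjugating enzyme UBE2A at 0.40 ± 0.057 and RNF111 at 0.33 ± 0.062. PCNA, the sliding clamp, had 327 and 349 CPM in caged cells and 411 and 430 CPM at 8 h (0.32 ± 0.051, adjusted p = 0.00364). By group, 7 of 16 gap-filling genes, 5 of 12 accessory recognition genes, 2 of 7 translesion genes and 3 of 9 signalosome genes were called higher at 8 h.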

How the data were processed

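The deposited table holds unnormalised expected counts per gene in 60184 rows, 5 of them plasmid sequences. Per the submitters' processing notes, Salmon 1.1.0, GRCh38, R 3.6.1 and DESeq2 were used; annotation and strand setting: not given in the sources used here. Salmon divides reads that fit several transcripts: 26 of the 33 repair genes had an estimate that was not whole within 0.01 in some library, and 14 share exon bases with an opposite-strand gene in GENCODE 29. Row identifiers were matched to symbols with the supplied name table, and coordinates are 1-based.

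Counts were rounded, plasmid rows left out, and features kept by filterByExpr (minimum count 10, minimum total 15; 17449 features). TMM factors and edgeR 4.0.16 (R 4.3.3) quasi-likelihood tests with legacy=TRUE covered all 6 libraries without covariates, on 3 residual degrees of freedom plus a prior of 5.43. Benjamini-Hochberg adjustment ran over all tested features of a comparison, with a threshold of 0.05. The SE is the size of the log2 fold change over the square root of F. No replicate pair was as close as sampling noise alone allows (ratio of chi-square to its degrees of freedom 3.44 to 4.00). The procedure was also run on simulated data, for 4 h against caged cells only. That check required recovery only of changes larger than those called here, so it does not bear on the small ones. Members, lists and tests were chosen with earlier results of these data known. All 33 genes are accounted for; called ones are given by library, and of 44 further genes at most 6 called ones of smallest p are named in each comparison. Alternatives, with DESeq2 1.42.0 and limma 3.58.1 among them, are in the closing section.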

Additional observations from a re-analysis of the deposited data

Results flagged for a closer look

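The changes at 4 h and 8 h differed by the test between those times for DDB2 (log2 step 0.26) and, of the further genes, for COPS3 (log2 step 0.22, adjusted p = 0.0438). Both were higher at 8 h, in 2 of 2 libraries against each 4 h library. The genes were picked by the test on these same libraries, so this separation is no further evidence. These calls are 3.03% of the repair genes and 2.27% of the further genes, near the background of 2.05% of all tested features called higher. The DDB2 step was not called with library totals, cyclic loess offsets, no filter, the replicate block or the 4 compared libraries alone. Without 8 h replicate 1 it was 0.19, and without 8 h replicate 2 it was 0.33. The COPS3 step was not followed through the alternatives.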

How the results depend on the processing

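Repair genes called lower numbered 0 in every fit at 4 h and in the step between the times; at 8 h there was 1 with upper-quartile factors, cyclic loess offsets, robust=TRUE or plasmid sequences kept, and 2 with library totals. Library totals moved the median of all features at 8 h by -0.104 and the median of the repair genes to 0.099, with 9 called higher; the share of all calls that were higher was 29.03% against 53.02%, at 4 h 44.7% against 63.3%, and in the step 35.4% against 62.8%. At 8 h 11 repair genes were called higher under cyclic loess offsets and 11 without a filter; at 4 h these gave 3 and 1. Leaving out 1 library gave 7 to 12 at 8 h, 0 to 6 at 4 h and 0 to 0 in the step. In the step, DESeq2 and robust=TRUE called 2, and library totals, cyclic loess offsets, no filter, the 4 compared libraries alone and the replicate block called 0. Over all features, the 4 h count of 1696 became 711 without a filter and 226 to 1615 without 1 library, the 8 h count of 4908 became 2275 to 4315 without 1 library, and the step count of 570 became 53 without a filter, 1051 with robust=TRUE and 6 to 274 without 1 library. The cause of these shifts was not tested, except that fits without a library have fewer samples. Under cyclic loess offsets RAD23B, DDB1 and RPA2 turned to -0.014, -0.046 and -0.019 at 8 h. Among global-genome, transcription-coupled and TFIIH genes the counts called higher at 8 h ranged over the alternatives from 3 to 5, 2 to 4 and 1 to 4. With the replicate number as a replicate block, 6 repair genes were called higher at 4 h, 16 at 8 h and 0 in the step. Over all features this fit called 1039 at 4 h and 193 in the step. Deviations of same-numbered libraries correlated at -0.017, 0.061 and -0.076 over all tested features. The labels do not say what same-numbered libraries share, and a correlation that includes scarce, noisy features cannot settle it. The largest SE at 8 h was 0.13, for ERCC8, beside a median of 0.073. ERCC8 averaged 16.8 CPM over all libraries, while GTF2H5 at 16.6 CPM had an SE of 0.11. ERCC8 also shares 28.3% of its exon bases with the pseudogene GNL3LP1 on the same strand. The cause of its large SE was not tested.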
